A study of Mus musculus with 2 samples.

Results

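The Toll-like receptors, their co-receptors, their intracellular signalling proteins, the cytosolic sensors of microbial products and a set of their best known outputs were followed as a group of 40 mouse genes, listed by name. Probes of 39 of them were found among the 27666 genes named on the array, as 56 probes on 110 spots, and Tlr13 was not analysed here. In the files 6 of them stand under older symbols, namely Gm1313 (Aim2), Cias1 (Nlrp3), Card4 (Nod1), Card15 (Nod2), Map3k7ip1 (Tab1) and Map3k7ip2 (Tab2).

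Transcripts were compared between a culture given MEF2C-ASR, a version of the transcription factor MEF2C that is always active and mutated in HDAC binding, and a control culture carrying the empty vector MYs-iPAC. Both are cultures of M/E, a mouse bone marrow line made immortal with the MLL/ENL fusion, and both carry the genotype M/E-Mef2c del/-, which the labels describe as lacking a functional Mef2c in the control. Both were infected with a retroviral vector, selected with puromycin, moved to fresh medium with SCF (100 ng/ml), IL3, IL6 and GM-CSF (10 ng/ml for each of these 3), and harvested after 6, 24 and 48 h. RNA from all 3 times was pooled for each culture and hybridised to 1 Agilent array, so each group is 1 pooled RNA, and no difference between the groups has a replicate check or a p-value. The age of the donor mice, the promoter that drives Mef2c in the vector, and whether each culture is a clone or a mixed population are not given in the sources used here.

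Toll-like receptors recognise microbial lipids, proteins and nucleic acids at the cell surface or in endosomes. Most of them recruit the adaptor MyD88, which assembles IRAK kinases and the ubiquitin ligase TRAF6, and the kinase TAK1 (Map3k7) with its TAB partners then activates NF-kB and MAP kinases, while the adaptor TRIF (Ticam1) leads to interferon genes. NOD proteins sense bacterial cell wall fragments in the cytosol through the kinase RIPK2, and inflammasomes built around NLRP3 or AIM2, ASC (Pycard) and caspase-1 (Casp1) mature the cytokine IL1B. Monocytes, macrophages, neutrophils and dendritic cells carry different sets of these sensors, and haematopoietic progenitors carry some of them too.

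Values are Feature Extraction's processed signals, which are intensity values after background subtraction. For differences each signal was divided by the array's 75th percentile, and a gene counted as measured where a probe was well above background on both arrays. The 75th percentile was 1240 on the MEF2C-ASR array and 1272 on the control array. The share of spots well above background was 67.5% on the MEF2C-ASR array and 60.1% on the control array, and the lowest signal called so was 19.98 and 38.3 there. Mef2c itself had a signal of 1969 with MEF2C-ASR and 795 in the control on the probe well above background, and its other probe was not above background on either array. A Mef2c signal well above background in the control stands against a plain reading of the label as no Mef2c transcript, and whether this probe lies in the deleted part of the gene is not given in the sources. All 9 markers of immature myeloid cells were measured on both arrays, while 2 of 6 B lineage, 3 of 6 T and NK lineage and 3 of 4 stromal markers were. Among stromal markers Pdgfrb was 3.50-fold lower, with 23.4 with MEF2C-ASR and 83.8 in the control. Lum was at least 11.0-fold lower, with 18.4, not above background, with MEF2C-ASR and 225 in the control. Col1a1 stood at 0.89 and Col1a2 at -0.06. Summed levels, in units of the 75th percentile, were 336 with MEF2C-ASR and 257 in the control for the immature myeloid markers. Most of that rise is Mpo, the only one at least 2-fold higher, with 143027 with MEF2C-ASR and 68289 in the control. All 9 lay above 0 with a median of 0.42, among them Ctsg at 0.02, Cd34 at 0.10 and Flt3 at 0.13. Scaling on spike-in spots, which shifts all genes by -0.15, puts these 3 below 0. The sums were 76.8 with MEF2C-ASR and 45.4 in the control for 12 monocyte and macrophage markers. Of these 3 of 9 measured were at least 2-fold higher, and Mertk and Mrc1 were not above background. Lyz2, the brightest of the monocyte and macrophage markers, had 23963 with MEF2C-ASR and 12541 in the control (0.97). For 8 neutrophil markers the sums were 409 with MEF2C-ASR and 279 in the control, with 5 at least 2-fold higher. S100a9 and S100a8 make up most of these sums. S100a9 had 302976 with MEF2C-ASR and 258469 in the control (0.27), and S100a8 had 155457 with MEF2C-ASR and 66154 in the control. For 8 dendritic cell markers the sum was lower, 7.77 with MEF2C-ASR and 9.69 in the control. Bst2 makes up most of that sum, with a signal of 8878 with MEF2C-ASR and 11888 in the control (-0.39). Of the 5 dendritic markers measured 3 lay above 0, and their median log2 difference was 0.31. Batf3 was at least 2-fold higher, and Cd209a, Clec9a and Siglech were not above background. Each sum is read between the arrays and not against another list. In a bulk culture more cells of a type and more RNA per cell cannot be told apart, and the part of these marker shifts in the results on sensors was not tested.

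Toll pathway genes differed in both directions. Of the 40 genes 30 were measured on both arrays. In cells with MEF2C-ASR, Il12a, which encodes a subunit of the cytokine IL12, and the transcription factor gene Irf5 were more than 2-fold higher, and Tlr6 was more than 2-fold lower. Over all 16573 measured genes 1.74% were at least 2-fold higher and 1.91% at least 2-fold lower, and with so few members past this fold no reading is drawn from the counts. The median log2 difference of the 30 genes was 0.15, against -0.03 over all measured genes, and 22 of the 30 (73.3%) lay above 0, against 44.8% of all genes. Scaling on spike-in spots moves every difference by the same amount and the median of all genes to -0.18. Under it the median of the members was -0.00 and 15 of them lay above 0, while their distance from the median of all genes was 0.18 either way. At 1.5-fold 5 members were higher (Il12a, Irf5, Nod2, Tlr2 and Tlr4) and 2 lower (Tlr5 and Tlr6), against 4.46% of all genes higher and 5.03% lower. Differences within 1.5-fold were found for 23 of the 30 genes (76.7%), against 90.4% of all genes.

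**Figure D1:**
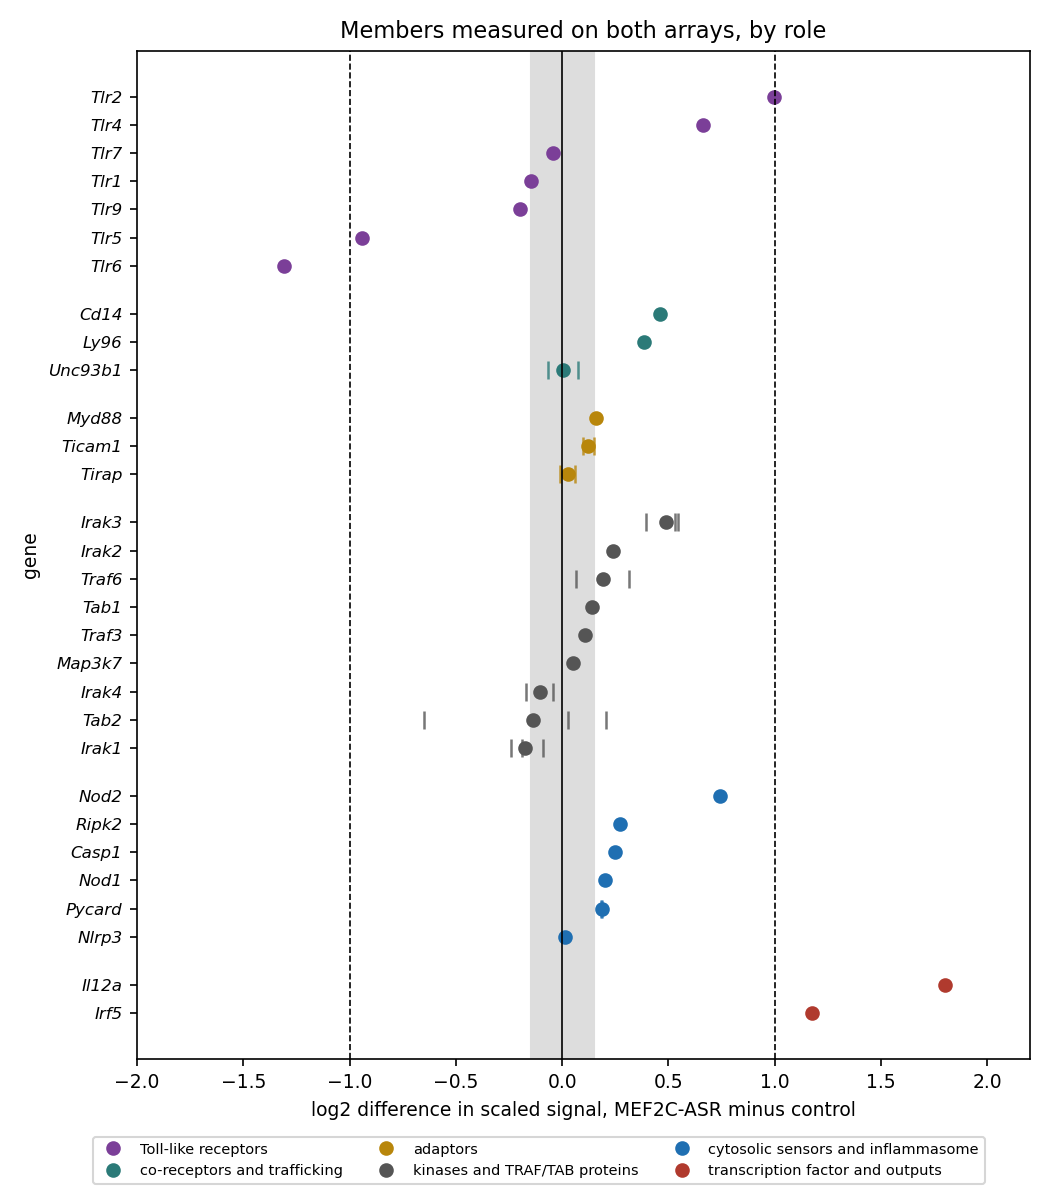
Log2 difference in scaled signal, MEF2C-ASR minus control (x axis), for the 30 members measured on both arrays (y axis), grouped by role. Points are gene values, ticks are single probes where a gene has several, the grey band is the spotting error of a single spot (0.15 to either side of 0), and dashed lines mark 2-fold. Il12a and Irf5 lie beyond the upper line, Tlr6 beyond the lower one, Tlr2 on the upper line, and the adaptors within 0.16 of 0.

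The error from spotting can be read from 150 probes printed many times on each array. For a difference of probes with a single spot it was 0.15 on the log2 scale over all of them, 0.06 at signals of 1000 or more, 0.19 between 100 and 1000, and 0.24 below 100. The software's own error estimate for the 42 measured member probes was wider, with a median of 10.0% of the signal on each array and up to 16.0% with MEF2C-ASR and 17.6% in the control. None of these errors covers the variation between cultures.

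Among the receptors themselves the cell surface members moved apart. Tlr2, the receptor for bacterial lipoproteins, had a signal of 9047 ± 210 with MEF2C-ASR and 4645 ± 113 in the control (mean and SD over 10 spots of the same array). Its spots ranged from 8722 over a median of 9022 to 9427 with MEF2C-ASR and from 4451 over 4633 to 4863 in the control, so the spots of the arrays did not overlap. The log2 difference was 0.998, just under the 2-fold line, with 4 of the 10 spot pairs past it. It was 0.85 with spike-in scaling and 1.01 with median scaling.

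TLR2 works as a pair with TLR1 or with TLR6, and the transcripts of these partners did not follow it. Tlr1 had a signal of 966 with MEF2C-ASR and 1096 in the control, a log2 difference of -0.15. Tlr6 had a signal of 402 with MEF2C-ASR and 1021 in the control, which was 2.48-fold lower with a log2 difference of -1.31. That difference is many times the spotting error at this signal, 0.19, and lay between -1.46 and -1.21 under the other processing tried. Tlr1 and Tlr6 each rest on 1 probe and 1 spot. The Tlr6 probe lies on chromosome 5 at 64307937 to 64307996 and the Tlr2 probe on chromosome 3 at 83941473 to 83941532, both on the minus strand, in coordinates of the array design, whose build the sources do not name. Tlr1 and Tlr6 are closely related neighbours, and sharing of signal between their probes was not tested.

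Tlr4, the lipopolysaccharide receptor, was higher by less. Its signal was 3577 ± 107 with MEF2C-ASR and 2314 ± 80.8 in the control (mean and SD over 9 spots of each array). The spots ranged from 3434 to 3738 with MEF2C-ASR and from 2195 to 2459 in the control without overlap, and the difference was 1.59-fold (0.66). Transcripts of Cd14 and Ly96, whose proteins deliver lipopolysaccharide to TLR4, differed in the same direction. Lbp, which is not a member and encodes a plasma carrier of lipopolysaccharide, went the other way (-0.80). Cd14, the membrane protein that hands it over, had a signal of 2043 with MEF2C-ASR and 1522 in the control (0.46), and Ly96, which encodes the binding subunit MD2, had 308 with MEF2C-ASR and 242 in the control (0.38). Both differences are larger than the spotting error and under 1.5-fold, and with spike-in scaling Ly96 stood at 0.23.

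**Figure D2:**
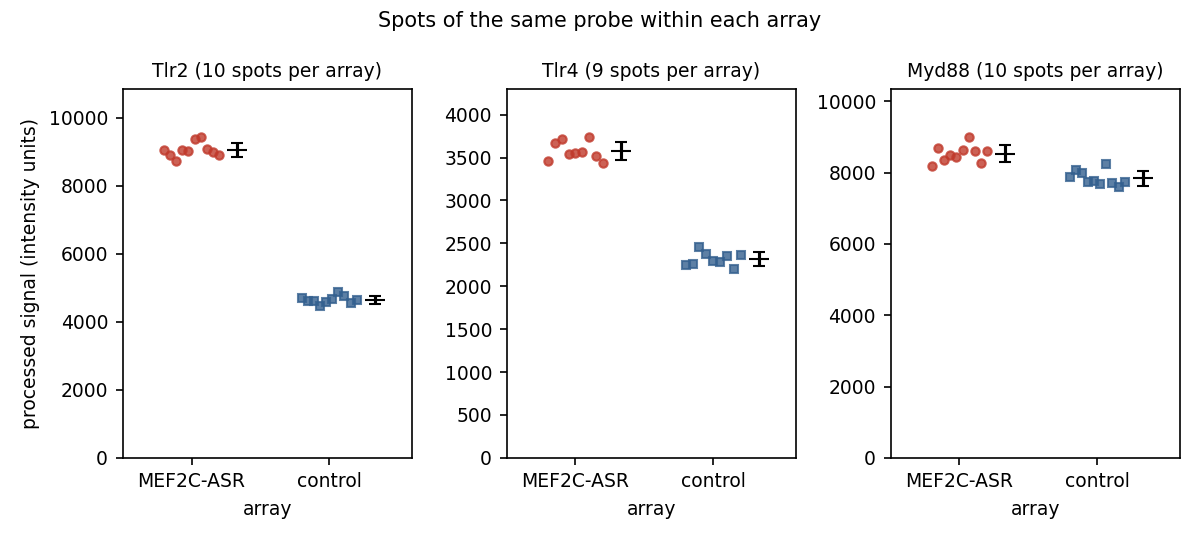
Processed signal (y axis, intensity units from 0) of each spot of the probes for Tlr2, Tlr4 and Myd88 on the MEF2C-ASR array and the control array (x axis). Bars show the mean and SD over spots of the same array, which measure spotting and not the spread between cultures. Tlr2 spots lie near 9047 with MEF2C-ASR and near 4645 in the control, Tlr4 spots near 3577 and 2314, and Myd88 spots near 8534 and 7837.

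Tlr5, the flagellin receptor, went the other way. Its signal was 167 with MEF2C-ASR and 329 in the control, 1.92-fold lower (-0.94), and spike-in scaling took it past 2-fold at -1.09 while normexp background correction gave -0.77. Tlr5 rests on 1 probe and 1 spot. The nucleic acid receptors of endosomes differed little. Tlr9, which senses unmethylated DNA, had a signal of 2555 with MEF2C-ASR and 3010 in the control (-0.20). Tlr7, a receptor for single-stranded RNA, had a dim signal of 75.9 with MEF2C-ASR and 80.3 in the control (-0.04). Unc93b1, the chaperone that carries these receptors to endosomes, stood at 0.01 over its probes, with 13528 with MEF2C-ASR and 13154 in the control on the brighter one, and at -0.15 with spike-in scaling. Of the 7 measured receptors 2 lay above 0 and 5 below, with a median of -0.15.

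Tlr3, the receptor for double-stranded RNA, Tlr8 and Cd180, a TLR4-like receptor of B cells, were not well above background on either array. Their processed signals lay between 4.15 and 4.73 with MEF2C-ASR and between 7.81 and 9.04 in the control. Most of these are surrogates, values that the software puts in place of signals too dim to measure, and over the 7559 spots with surrogates on both arrays the median was 4.30 with MEF2C-ASR and 8.13 in the control, a scaled log2 difference of -0.88. Ly86, the partner of CD180, had a signal of 35.8 with MEF2C-ASR, well above background, and 16.9 in the control, not above it. Because the control array called nothing below 38.3, no fold can be given for Ly86.

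**Figure D3:**
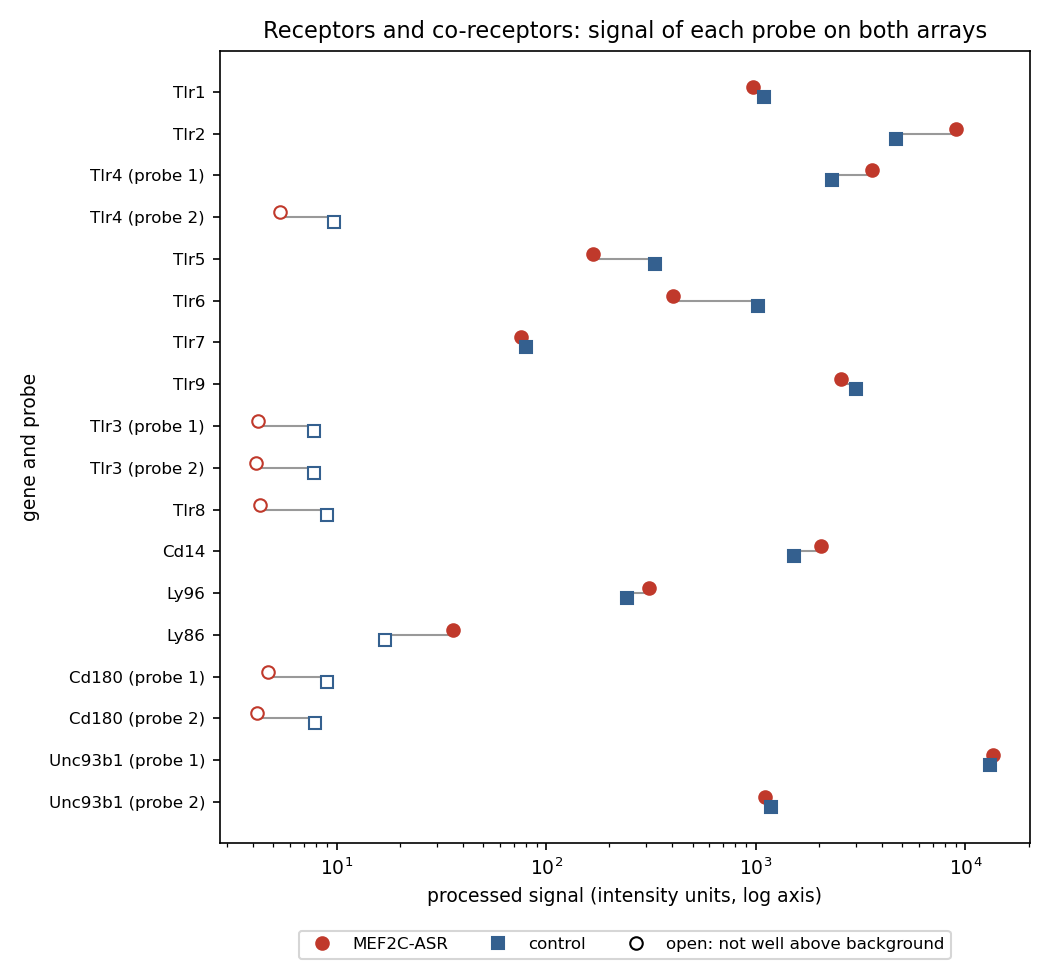
Processed signal (x axis, intensity units, log axis) of each probe for the receptors and co-receptors (y axis) on the MEF2C-ASR array (circles) and the control array (squares), with open symbols where the probe was not well above background. Each row is read on its own, since signals of different probes are not comparable. Tlr2, Tlr4, Cd14 and Ly96 were higher with MEF2C-ASR, Tlr5 and Tlr6 lower, and the open symbols mark Tlr3, Tlr8, Cd180, the other Tlr4 probe and, in the control alone, Ly86.

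The promoters of Tlr2 and Tlr6, the receptor genes with the largest differences in each direction, are shown from RefSeq, 250 bases before to 50 bases after each listed start, 5′ to 3′ on the gene's strand. Motifs were searched on both strands for MEF2 (CTA, any 4 bases, TAG), NF-kB (GGG, any 3 bases, TTCC), IRF (GAAA, any 2 bases, GAAA), AP-1 (TGANTCA) and PU.1 (GAGGAAG), and capitals mark every match found. Tlr6 has a pair of listed starts.
Tlr2 promoter, GRCm38.p6 chr3:83841559-83841858, minus strand: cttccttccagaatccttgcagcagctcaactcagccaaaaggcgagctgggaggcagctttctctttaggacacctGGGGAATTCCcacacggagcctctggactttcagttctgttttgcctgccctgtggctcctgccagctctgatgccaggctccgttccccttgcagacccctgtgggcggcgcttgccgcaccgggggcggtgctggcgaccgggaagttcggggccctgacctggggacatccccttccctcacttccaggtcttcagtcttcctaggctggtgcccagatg
Tlr6 promoter, GRCm38.p6 chr5:64959117-64959416, minus strand: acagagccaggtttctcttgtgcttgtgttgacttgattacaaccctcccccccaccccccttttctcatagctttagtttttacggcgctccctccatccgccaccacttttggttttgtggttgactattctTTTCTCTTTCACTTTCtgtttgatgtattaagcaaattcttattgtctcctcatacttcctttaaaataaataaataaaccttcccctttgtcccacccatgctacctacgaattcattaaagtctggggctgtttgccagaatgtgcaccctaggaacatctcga
Tlr6 promoter, GRCm38.p6 chr5:64959999-64960298, minus strand: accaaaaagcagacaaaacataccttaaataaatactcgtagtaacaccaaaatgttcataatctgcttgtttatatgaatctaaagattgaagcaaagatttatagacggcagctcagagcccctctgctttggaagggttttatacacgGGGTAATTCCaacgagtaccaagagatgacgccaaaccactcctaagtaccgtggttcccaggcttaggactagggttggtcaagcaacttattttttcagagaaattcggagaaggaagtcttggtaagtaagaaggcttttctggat
The capitals in Tlr2 and in the last Tlr6 promoter are NF-kB matches, and those in the other Tlr6 promoter are a pair of overlapping IRF matches. An NF-kB match was present in 5.56% and an IRF match in 3.44% of all 32851 promoters of the same length. None of the 41 promoters of the 31 members listed there held the MEF2 motif, which 3.69% of all promoters held. A match describes the letters in this window and says nothing on binding.

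Adaptors of the pathway were nearly alike on the arrays. Myd88, the adaptor of most Toll-like receptors, had a signal of 8534 ± 232 with MEF2C-ASR and 7837 ± 201 in the control (mean and SD over 10 spots of each array), a log2 difference of 0.16. Its spots ranged from 8200 to 8997 with MEF2C-ASR and from 7590 to 8229 in the control. These signals, before the scaling used for the difference, overlapped at the edge. Ticam1, which encodes TRIF, stood at 0.12 over its pair of probes, with 1008 and 1020 with MEF2C-ASR and 932 and 979 in the control. Tirap, the bridging adaptor of TLR2 and TLR4, stood at 0.03, with 2019 and 1871 with MEF2C-ASR and 1986 and 1930 in the control. Ticam2, the bridging adaptor of TRIF, had a signal of 26.0 with MEF2C-ASR and 21.7 in the control and was above background on the first array alone. With spike-in scaling Myd88 stood at 0.01 and the differences of Ticam1 and Tirap lay below 0, so no direction is given for any of them.

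Kinases and ubiquitin ligases downstream of the adaptors all lay within 1.5-fold. Irak3, which encodes IRAK-M, a kinase-like inhibitor of the pathway, stood apart from the rest with 0.49. Its 3 probes had signals of 949, 297 and 86.2 with MEF2C-ASR and 668, 232 and 61.3 in the control, and their differences lay between 0.40 and 0.54. Irak2, a kinase that sustains the response, had 1323 with MEF2C-ASR and 1150 in the control (0.24). Irak1, which joins MyD88 complexes, was lower on each of its 3 probes by -0.24 to -0.09, with 12546 with MEF2C-ASR and 13702 in the control on the brightest. Irak4, the first kinase of the complex, stood at -0.11.

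Traf6, the ubiquitin ligase that relays the MyD88 signal, had 916 with MEF2C-ASR and 896 in the control on its brightest probe (0.07). Its other measured probe was dim, with 65.7 with MEF2C-ASR and 54.2 in the control (0.31), and the mean was 0.19. Traf3, which steers signals towards interferon genes, had 4715 with MEF2C-ASR and 4482 in the control (0.11). Map3k7, encoding the kinase TAK1, had 552 with MEF2C-ASR and 547 in the control (0.05), and its partner Tab1 had 10937 with MEF2C-ASR and 10172 in the control (0.14). For Tab2, the ubiquitin-binding partner, the probes disagreed, with 0.20 and 0.03 on the brighter ones and -0.65 on a dim one at 34.8 with MEF2C-ASR and 56.0 in the control. The mean of -0.14 for Tab2 turned to 0.12 with the brighter probes alone. The median over these 9 genes was 0.11, and with spike-in scaling Traf3 (-0.04), Map3k7 (-0.10) and Tab1 (-0.01) lay below 0.

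Members among the cytosolic sensors and inflammasome genes leaned upward, each by less than 2-fold. All 6 that were measured lay above 0, and their median was 0.22. Cytosolic sensors outside the members, named after their values were seen, went both ways. Ifih1, Cgas, Nlrc4, Nlrp12 and Nlrx1 stood between -0.33 and -0.10. Naip2, Naip5, Zbp1, Nlrc3, Ddx58 and Dhx58 stood between 0.02 and 0.72. Nod2, the sensor of muramyl dipeptide, had 263 with MEF2C-ASR and 161 in the control, 1.68-fold higher (0.74), which shrank to 0.52 with normexp. Nod2 rests on 1 probe and 1 spot. Its relative Nod1 had 4546 with MEF2C-ASR and 4059 in the control (0.20), and their shared kinase Ripk2 had 159 with MEF2C-ASR and 135 in the control (0.27). Among inflammasome genes Casp1, the protease that matures IL1B, had 6179 with MEF2C-ASR and 5335 in the control (0.25). Pycard, which encodes the adaptor ASC, stood at 0.19 with its probes at 37208 and 25300 with MEF2C-ASR and 33459 and 22876 in the control. Nlrp3 had 167 with MEF2C-ASR and 170 in the control (0.01), and the DNA sensor Aim2 was not above background on either array. With spike-in scaling Nlrp3 lay below 0, at -0.14, while Casp1, Ripk2, Nod1 and Pycard stood between 0.03 and 0.12, within the spotting error of a single spot pooled over all probes.

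The largest upward differences among the members lay at the end of the pathway. Irf5, a transcription factor that acts downstream of MyD88 on inflammatory cytokine genes, had a signal of 835 with MEF2C-ASR and 379 in the control, 2.26-fold higher (1.18). Il12a, which encodes the p35 chain of the T helper cytokine IL12, had 500 with MEF2C-ASR and 147 in the control, 3.48-fold higher (1.80). Both remained past 2-fold under each scaling and background correction tried, Irf5 between 1.03 and 1.19 and Il12a between 1.39 and 1.81. Each rests on 1 spot, at chromosome 6, 29469047 to 29469106, for Irf5 and at chromosome 3, 68795192 to 68795251, for Il12a, in the same unnamed build.

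The other outputs were not above background or at the edge of detection. Il12b, which encodes the p40 chain that pairs with p35 to form IL12, was not above background on any of its 10 spots on either array, with signals of 4.12 to 5.47 with MEF2C-ASR and 7.81 to 8.65 in the control. Ptgs2, encoding the prostaglandin synthase COX2, was likewise not above background on either of its probes. Il10, an inhibitory cytokine, had 34.5 ± 7.23 with MEF2C-ASR and 35.7 ± 2.997 in the control (mean and SD over 9 spots of each array). All 9 of these spots were called well above background on the MEF2C-ASR array and 0 on the control array, so the control value is limited by background and no fold is given for Il10.

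The promoters of Irf5 and Il12a are shown from the same source because these genes were the members highest with MEF2C-ASR. Il12a has a pair of listed starts.
Irf5 promoter, GRCm38.p6 chr6:29526375-29526674, plus strand: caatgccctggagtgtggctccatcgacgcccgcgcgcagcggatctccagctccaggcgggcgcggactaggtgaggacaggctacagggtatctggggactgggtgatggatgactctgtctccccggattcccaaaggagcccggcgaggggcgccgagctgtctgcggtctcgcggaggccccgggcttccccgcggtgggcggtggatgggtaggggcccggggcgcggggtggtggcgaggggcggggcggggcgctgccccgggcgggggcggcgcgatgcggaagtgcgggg
Il12a promoter, GRCm38.p6 chr3:68690394-68690693, plus strand: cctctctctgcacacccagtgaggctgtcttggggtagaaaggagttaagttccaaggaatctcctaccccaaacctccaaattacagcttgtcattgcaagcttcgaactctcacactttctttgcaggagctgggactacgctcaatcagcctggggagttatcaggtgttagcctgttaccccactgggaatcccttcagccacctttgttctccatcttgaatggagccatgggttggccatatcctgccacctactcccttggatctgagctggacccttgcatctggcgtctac
Il12a promoter, GRCm38.p6 chr3:68691174-68691473, plus strand: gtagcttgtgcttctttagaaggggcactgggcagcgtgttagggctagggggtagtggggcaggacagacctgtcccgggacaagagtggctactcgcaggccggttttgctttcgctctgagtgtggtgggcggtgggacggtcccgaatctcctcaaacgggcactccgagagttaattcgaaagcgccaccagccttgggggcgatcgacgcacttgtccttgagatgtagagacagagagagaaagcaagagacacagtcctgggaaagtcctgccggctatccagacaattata
No letters are in capitals here, since none of the 5 motifs matched in these 3 windows, which says only that these letters are not there.

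Other genes of the pathway were taken as a pair of lists, and the first holds sensors, adaptors and regulators that are not among the 40. Of its 56 genes 47 were measured, and their median was 0.07 (-0.08 with spike-in scaling). Of these, 2 lay 2-fold or more above the control and none below, against 1.74% and 1.91% of all measured genes, and nothing is read from so few. Btk, a kinase that acts in several Toll-like receptor pathways, had 13208 with MEF2C-ASR and 5997 in the control (2.26-fold). Map3k8, the kinase TPL2 that links NF-kB activation to ERK, had 187 with MEF2C-ASR and 92.8 in the control (2.06-fold) and was below 2-fold with spike-in scaling. Nlrp1a, an inflammasome sensor, was at least 2.56-fold higher, with 95.8 with MEF2C-ASR and 33.3, not above background, in the control. The scavenger receptor Cd36 was at least 2.12-fold lower, with 15.0, not above background, with MEF2C-ASR and 43.5 in the control. That control value lies close to 38.3, the lowest signal called above background there, and the bound uses 1 of the 2 Cd36 probes. Among sensors and adaptors for cytosolic RNA and DNA, Ddx58 stood at 0.02 with probes of opposite sign, Mavs at -0.13, Sting1 at -0.17 and Irf3 at 0.02, named after their values were seen.

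The other list holds transcripts that Toll-like receptor signalling is known to induce. Like the members, it was chosen with earlier results of these data known. Of its 28 genes 21 were measured, 19 lay above 0, and the median was 0.80 (0.62 with normexp and 0.65 with spike-in scaling). Among the 19, Ptges (0.07) falls below 0 with spike-in scaling. Past 2-fold were 8 higher and none lower, against 1.74% higher and 1.91% lower among all measured genes. Il1b, a cytokine matured by the inflammasome, was 6.84-fold higher, with 866 with MEF2C-ASR and 130 in the control. Acod1, which makes itaconate in activated macrophages, had 1170 with MEF2C-ASR and 313 in the control (3.83-fold), and the acute phase gene Saa3 had 5559 with MEF2C-ASR and 1751 in the control (3.25-fold). The chemokine genes Ccl4, Ccl3 and Cxcl10 were 3.73-fold, 2.68-fold and 2.42-fold higher, the cytokine signalling inhibitor Socs3 2.91-fold and Tnf 2.13-fold. With spike-in scaling 7 of the 8 stayed past 2-fold and Tnf did not. Cxcl2, a neutrophil attractant, was at least 2.53-fold higher, with 94.6 with MEF2C-ASR and 15.3, not above background, in the control.

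Feedback inhibitors of NF-kB in this list were close to 2-fold higher and are named after their values were seen. Nfkbia, which encodes the inhibitor IkBa, had 34352 with MEF2C-ASR and 18281 in the control (0.95), and Tnfaip3, encoding the ubiquitin-editing enzyme A20, had 1205 with MEF2C-ASR and 645 in the control (0.94). Ifnb1, Il23a and Nos2 were not above background on either array, as was seen for Il12b and Ptgs2. Il6, Il1a and Cd40 were above background with MEF2C-ASR alone, with no 2-fold bound. Of the markers given above, all 8 of neutrophils, all 9 of immature myeloid cells and 8 of 9 measured of monocytes and macrophages lay above 0. Spike-in scaling, which shifts all genes by -0.15, puts Ctsg, Cd34, Flt3 and Marco (0.005) below 0. Fcgr1, of the last list, was lower (-0.51). The part of these marker shifts in the higher level of the induced transcripts was not tested.

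**Figure D4:**
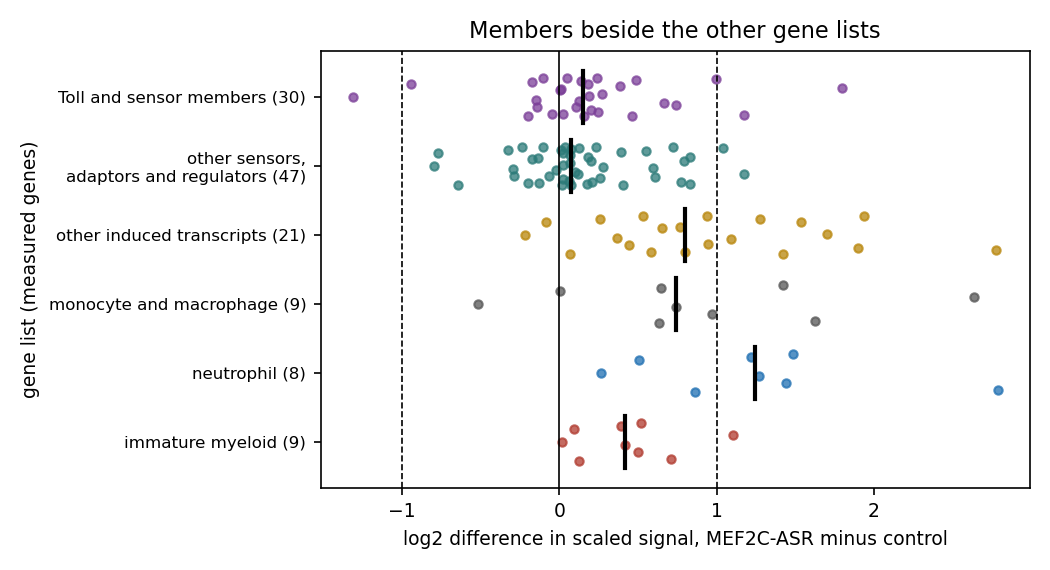
Log2 difference in scaled signal, MEF2C-ASR minus control (x axis), of every measured gene in the group of Toll and sensor genes, in the pair of other pathway lists and in 3 marker lists (y axis, with the number measured). Points are genes, spread vertically for legibility, black bars are medians and dashed lines mark 2-fold. The medians are 0.15 for the 30 members, 0.07 for the other sensors, 0.80 for the induced transcripts, 0.74 for monocyte and macrophage markers, 1.24 for neutrophil markers and 0.42 for immature myeloid markers.

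**Figure D5:**
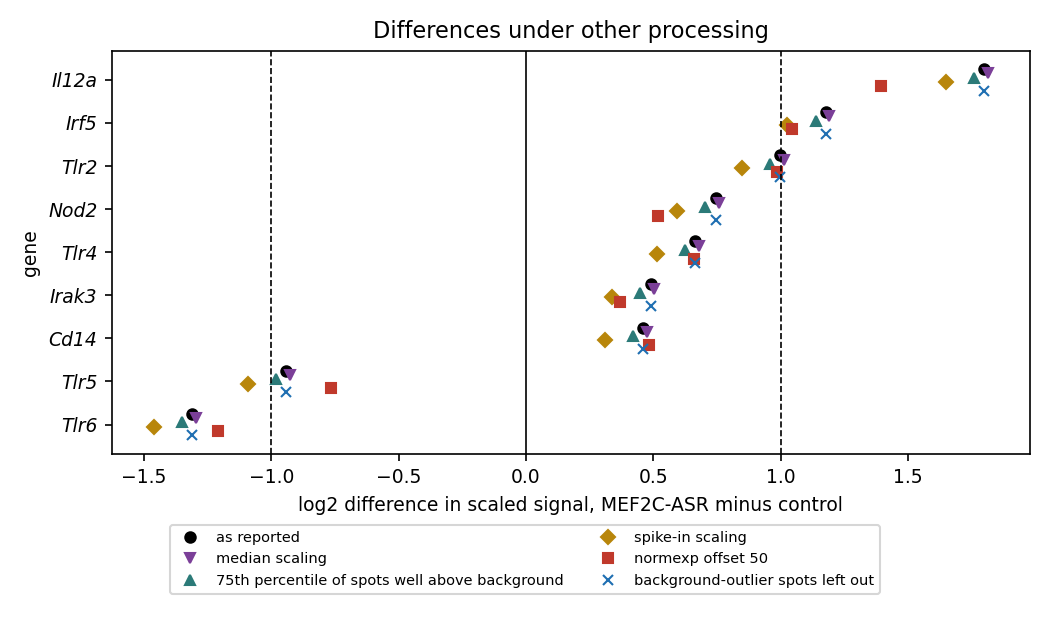
Log2 difference, MEF2C-ASR minus control (x axis), of 9 members (y axis) as reported and under 5 other ways of processing (symbols), with dashed lines at 2-fold. Il12a, Irf5 and Tlr6 stay beyond the lines in all of those shown, while Tlr2 and Tlr5 sit near them and cross with median scaling (Tlr2, 1.01) or spike-in scaling (Tlr5, -1.09).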

How the data were processed

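Spot intensity values were deposited by the authors as 1 scanner file per array, written by Feature Extraction 9.5.1.1 per the file headers. Its processed signal has a spatially detrended background removed, a multiplicative detrending, and surrogates in place of dim signals. Flags per spot, deposited as 0 or 1 (other), mark spots well above background, saturated spots and outliers. The deposited value table equalled the processed signals (largest relative difference 0; column medians 83.2 with MEF2C-ASR and 85.8 in the control), so its scale is linear with no centring. Both arrays were scanned together on the same slide, per the file headers.

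Processed signals were converted to log2 and centred on each array's 75th percentile over 43379 non-control spots. Outlier spots (201 on the MEF2C-ASR array, 202 on the control array) were left out, spots averaged per probe and measured probes per gene. Saturation flags were set on 0 spots. RefSeq GRCm38.p6 gave names to the 41174 probes, 23082 by accession, 6582 by symbol, 3073 by an older symbol and 8437 left with the file's name. A gene counted past 2-fold where its measured probes had the same sign. Where a gene was above background on 1 array alone, a bound was taken against the dim probe's own level or that array's detection floor, whichever was higher. With 1 array per group no test was run. Alternatives were normexp (limma 3.58.1, offset 50, fitted without spots flagged for background, because a few backgrounds far above their spots break a fit on all spots), other scalings, probe filters and folds. Steps were tested on simulated data. Python 3.11.15 and R 4.3.3 were used. The members and lists were chosen with earlier results of these data known. Named are all members, and of the other pathway lists the genes past 2-fold or with a 2-fold bound. Other genes of these lists that the text names were chosen after their values were seen.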

Additional observations from a re-analysis of the deposited data

How the results depend on the processing

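Il12a and Irf5 higher and Tlr6 lower stayed past 2-fold in every alternative tried at 2-fold. Of the members 2 or 3 were higher in all of these, the third being Tlr2 with median scaling and Ly86 with all probes kept. There were 2 lower members with spike-in scaling (Tlr5 beside Tlr6) and 2 with all probes kept (Tlr8, which has a surrogate value with MEF2C-ASR, beside Tlr6). At 1.5-fold in place of 2-fold 5 members were higher and 2 lower, against 4.46% and 5.03% of all genes. With spike-in scaling, which shifts all genes by -0.15, the members' median was -0.00178 and that of the other sensors -0.0795. The share of higher genes among all past 2-fold was 47.8% as reported, 32.4% with spike-in scaling and 65.1% with the brighter probes alone. Of the list of other sensors, adaptors and regulators 1 gene was higher with normexp, with spike-in scaling and with the brighter probes alone, 4 were higher and 1 lower with all probes kept, and 9 higher and 3 lower at 1.5-fold. Of the induced transcripts 13 were higher with all probes kept and 14 at 1.5-fold. Over all genes 289 were higher and 316 lower as reported, 161 and 122 with normexp, 210 and 439 with spike-in scaling, 790 and 981 with all probes kept, 203 and 109 with the brighter probes alone, and 739 and 833 at 1.5-fold. The number of genes was 16573 as reported, 27616 with all probes kept and 12576 with the brighter probes alone. Counts with all probes kept include genes not above background. With all probes kept Tlr4 stood at -0.08, because a probe not above background enters its mean. No member had a 2-fold bound in the settings where bounds apply. Single members that moved beyond the spotting error were Tlr5 (-0.77), Nod2 (0.52) and Il12a (1.39) with normexp, Tab2 with the brighter probes alone (0.12) and with the brightest probe per gene (0.20), Tlr4 and Traf6 (-0.07) with all probes kept, and all 30 with spike-in scaling, each by -0.15. No paired analysis was possible because each group has 1 array. Background limits signals below 19.98 with MEF2C-ASR and below 38.3 in the control.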

Other observations

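Several members have probes designed from cDNA clones that lie away from the brightest probe of the gene. The Tlr4 probe from AK014533 lies 86.8 kb away and gave surrogates on both arrays, 5.37 with MEF2C-ASR and 9.78 in the control, while the Tlr4 probe printed 10 times was well above background on every kept spot. The Traf6 probe from AK051130 lies 6.18 kb away and was not above background on either array. The dim Tab2 probe from AK086230 lies 17.7 kb away and was the only one of its probes below 0. The Tab2 probe enters the reported mean of Tab2, and the Tlr4 and Traf6 probes enter the mean of their gene where all probes are kept. Which transcripts they match was not tested.

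Promoters listed for 31 of the 40 members, 41 windows in all, held the PU.1 motif in 10 windows (24.4%) against 13.6% of all promoters, and the NF-kB motif in 6 (14.6%) against 5.56%. The AP-1 motif was in 1 window (2.44%) against 7.81%, and the IRF motif in 2 (4.88%) against 3.44%. These shares describe windows of the same length, some of which belong to the same gene, and no test was made of them. The NF-kB matches lay in Tlr2, Tlr3, Tlr6, Tirap, Map3k7 and Traf3, of which Tlr2 was higher, Tlr6 lower, Tlr3 not measured and the others within 0.11 of 0.

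Sensors, adaptors and regulators named after their values were seen include some that were lower and some that were higher with MEF2C-ASR. Traf5 had a signal of 427 with MEF2C-ASR and 683 in the control (-0.64). Lbp, which encodes the plasma protein that carries lipopolysaccharide to CD14, had a signal of 3576 with MEF2C-ASR and 6365 in the control (-0.80). Peli1, a ubiquitin ligase of the IRAK complex, stood at -0.77 with its 3 probes between -1.38 and -0.40, and its relative Peli2 at 0.83, with 1123 with MEF2C-ASR and 648 in the control. Casp4, the inflammatory caspase that senses cytosolic lipopolysaccharide, had 8404 with MEF2C-ASR and 5037 in the control (0.77), and Naip5, a flagellin sensor, had 262 with MEF2C-ASR and 163 in the control (0.72).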
